A study of Mus musculus with 50 samples.

Results

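The transcripts described here are 10 genes of the NF-kB feedback circuit and the TNF family, Nfkb1, Nfkb2, Relb, Nfkbia, Tnfaip3, Birc3, Traf1, Ltb, Tnfrsf12a and Icam1, chosen by symbol out of the 45792 rows of a raw count table of mouse liver RNA. The animals were male C3H/He mice, of the substrains C3H/HeNHsd or C3H/HeNCrl, with 48 weeks given as the harvest time, and the substrain of each animal was not given in the sources used here. They were fed a control diet or the ALIOS diet (American lifestyle-induced obesity syndrome diet), which is rich in trans-fat and comes with fructose in the drinking water. Libraries came from 12 non-tumour livers on the control diet (N1 to N12), 11 non-tumour livers on the ALIOS diet (N13 to N23), 12 spontaneous tumours on the ALIOS diet (T2 to T6 and T8 to T14) and 1 spontaneous tumour on the control diet (T7). A further 8 tumours (T15, T16 and T22 to T27) were from ALIOS fed mice given diethylnitrosamine (DEN), a liver carcinogen, and 5 tumours (T17 to T21) from control diet mice given DEN. Another library labelled as an ALIOS tumour, T1, was left out throughout. No non-tumour liver of a DEN treated mouse was among the libraries, so DEN and tumour cannot be told apart where DEN tumours are set against livers, and the labels do not tie tumours and livers to the same animals. The p-values measure the spread between these libraries.

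NF-kB is a family of dimeric transcription factors that is held in the cytoplasm by inhibitor proteins until a signal, often from a TNF family receptor, leads to the destruction of the inhibitor. In the canonical arm the dimers contain p50, made from Nfkb1, and in the non-canonical arm p52, made from Nfkb2, pairs with RelB. NF-kB dimers raise the transcription of their own inhibitors, which closes a feedback loop, and of genes for survival, adhesion and lymphoid signalling. In liver the pathway is active in hepatocytes as well as in macrophages, lymphocytes, endothelial cells and bile duct cells.

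The promoters of these genes are shown because kappa-B sites, the short DNA elements bound by NF-kB, lie close to the start of many of its feedback targets. In the RefSeq promoters for GRCm38.p6, the assembly also called mm10, 8 of the 10 genes had 11 promoters of 300 bases each, with 250 of these bases upstream of the start site. Nfkb1 and Relb had none. The kappa-B consensus was taken as GGGRNNYYCC, with R for A or G, Y for C or T and N for any base. Searched on both strands, it was present in 6 of the 11 promoters (54.5%), those with a match belonging to Nfkb2, Nfkbia, Tnfaip3 and Ltb. Nfkb2 had 3 promoters, all with a match, and its promoters 2 and 3 share bases. The match in promoter 3 lies in the shared bases and is also found in promoter 2. Over all genes listed there, 8.46% of 32851 promoters held a match. Counted by gene, 4 of the 8 held a match in any promoter, against 9.55% of 27025 genes. The genes were chosen as members of the NF-kB circuit and the TNF family, so a higher share than over all genes is no test. The bases upstream of the annotated gene are printed 5′ to 3′ for 2 genes with a match, marked in capitals, and for 2 genes that have none in this window. They are Nfkbia (chr12:55492648-55492897, minus strand), Ltb (chr17:35194257-35194438, plus strand), Icam1 (chr9:21015690-21015939, plus strand) and Tnfrsf12a (chr17:23677469-23677699, minus strand).
Nfkbia: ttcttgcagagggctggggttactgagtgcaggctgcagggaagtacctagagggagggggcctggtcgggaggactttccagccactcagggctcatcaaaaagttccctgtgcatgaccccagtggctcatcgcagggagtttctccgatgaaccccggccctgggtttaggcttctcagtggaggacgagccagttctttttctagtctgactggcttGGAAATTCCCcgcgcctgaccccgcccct
Ltb: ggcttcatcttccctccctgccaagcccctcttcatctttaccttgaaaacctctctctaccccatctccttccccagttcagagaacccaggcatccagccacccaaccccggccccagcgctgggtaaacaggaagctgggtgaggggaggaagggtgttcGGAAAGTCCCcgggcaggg
Icam1: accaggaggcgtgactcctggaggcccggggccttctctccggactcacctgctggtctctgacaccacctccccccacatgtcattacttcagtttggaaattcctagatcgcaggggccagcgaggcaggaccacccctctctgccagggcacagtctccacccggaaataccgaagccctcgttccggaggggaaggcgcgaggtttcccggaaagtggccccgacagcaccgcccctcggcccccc
Tnfrsf12a: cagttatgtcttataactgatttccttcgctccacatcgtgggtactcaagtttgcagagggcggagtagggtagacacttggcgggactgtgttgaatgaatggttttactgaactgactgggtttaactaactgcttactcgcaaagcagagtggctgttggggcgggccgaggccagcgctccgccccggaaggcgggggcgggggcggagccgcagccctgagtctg
The match is a description of these letters, and no binding was measured. Sites that depart from the pattern were not sought, so a gene without a match may still hold a kappa-B site. Icam1, for example, holds tggaaattcc, which departs from the pattern at its leading base.

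Between 23798251 and 45751398 reads were counted per library. Hepatocyte transcripts were abundant in each of the 49 libraries used, with a summed level of 10 hepatocyte markers between 82608 and 265738 CPM (counts of a gene per 1000000 counts of its library, TMM scaled). In T1, by contrast, albumin was at 37.9 CPM against a median of 152374 CPM in the other 26 tumours, and the kidney transcripts Kap, Slc34a1 and Umod were at 35347, 4922 and 1812 CPM against medians of 0. Levels below are CPM adjusted for library composition by the TMM method, and they compare libraries for 1 gene, not genes with each other. Changes are log2 fold changes ± SE from edgeR's quasi-likelihood test. A gene was called higher or lower at a Benjamini-Hochberg adjusted p under 0.05 over all genes that passed the low count filter. All 10 genes passed it in every comparison. Ltb and Traf1 had medians of only 0.294 and 0.242 CPM in control livers. In comparisons with control livers they may have passed through the group where they were high.

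More of the 10 genes were called between tumour and liver than between diets. On the ALIOS diet 3 of the 10 genes, Relb, Ltb and Traf1, were higher in non-tumour liver and none was lower, where 6.73% of 13723 genes were called higher and 4.51% lower. In spontaneous ALIOS tumours 8 genes were higher than in ALIOS livers and none was lower, against 26.9% and 25.9% of 14183 genes. The exceptions were Nfkbia and Tnfaip3. In DEN ALIOS tumours 7 genes were higher and Nfkbia was lower than in the same ALIOS livers, against 27.7% and 19.8% of 14434 genes. In DEN control diet tumours 8 genes were higher than in control livers and none was lower, against 27.3% and 24.4% of 14731 genes. The median log2 fold change of the 10 genes was 0.24 for diet, 1.06 in spontaneous tumours, 1.0 in DEN ALIOS tumours and 1.55 in DEN control diet tumours. Over all genes tested the corresponding medians were -0.02, 0.01, 0.08 and 0.03. The first 3 of these comparisons share the ALIOS livers, and diet in liver shares the control livers with the last.

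**Figure D1:**
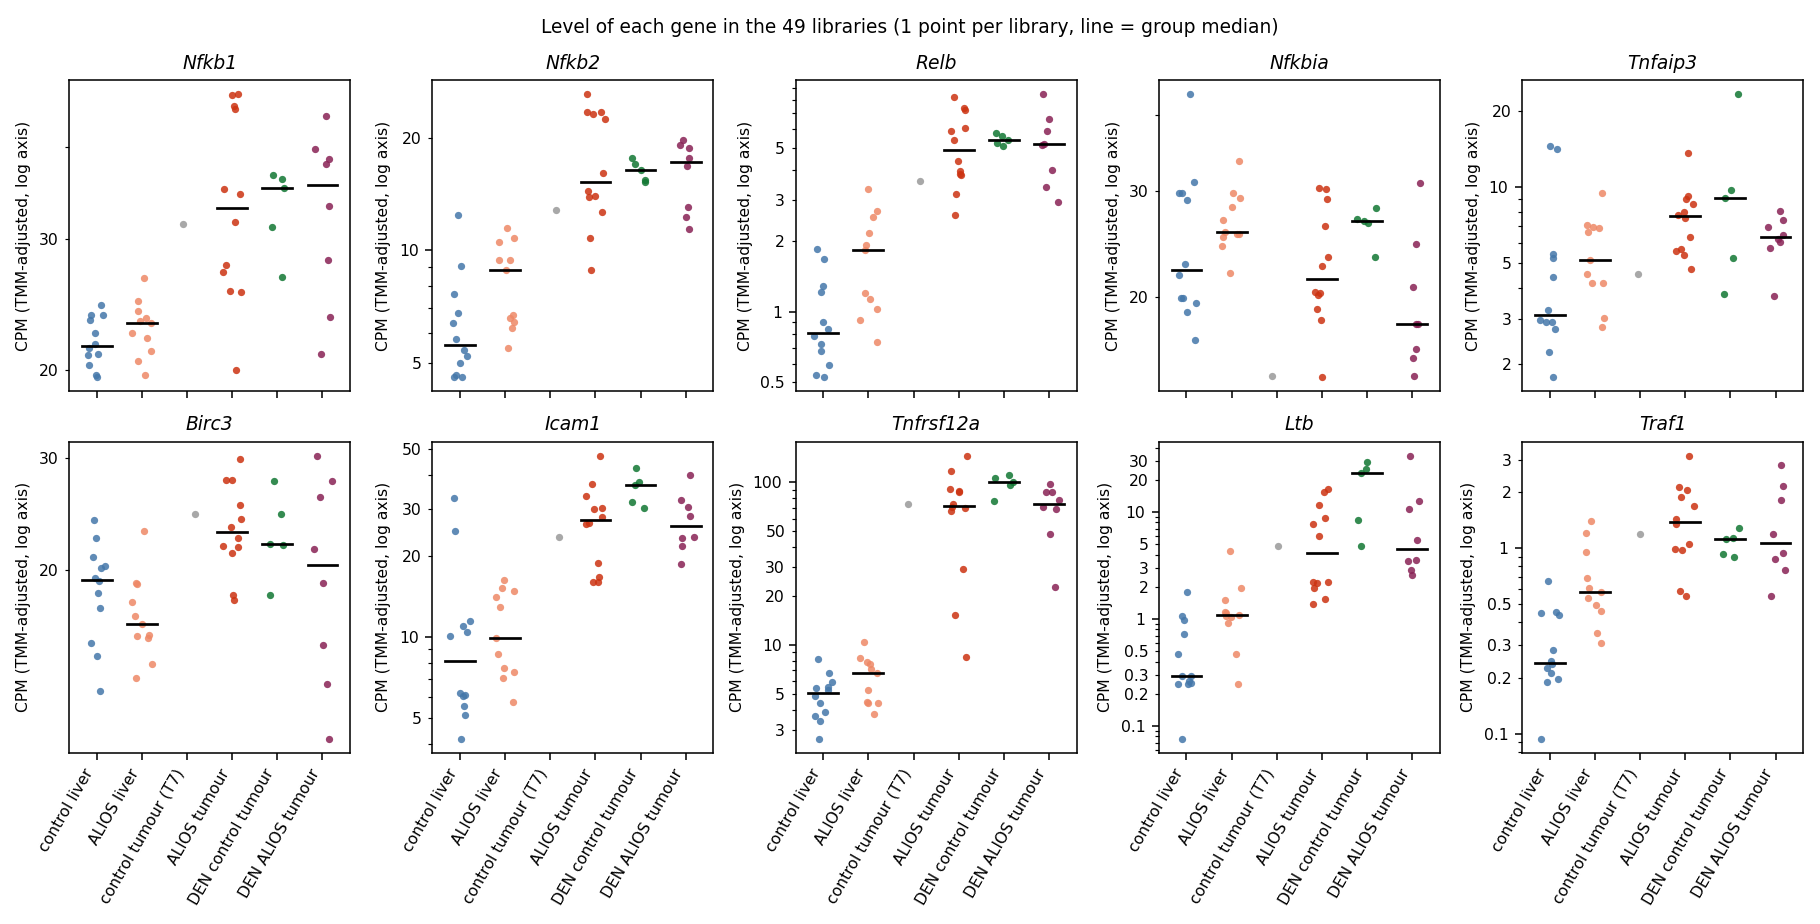
Levels of the 10 genes in 49 libraries, in CPM on a log axis, with 1 point per library, 1 column per sample group and a line at the group median. Tnfrsf12a separates most tumours (22.8 to 111 CPM in the DEN tumours) from livers (2.65 to 10.4 CPM), whereas the Nfkbia levels of the DEN control diet tumours (23.3 to 28.1 CPM) lie within the range of the control livers (17 to 43.3 CPM).

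**Figure D2:**
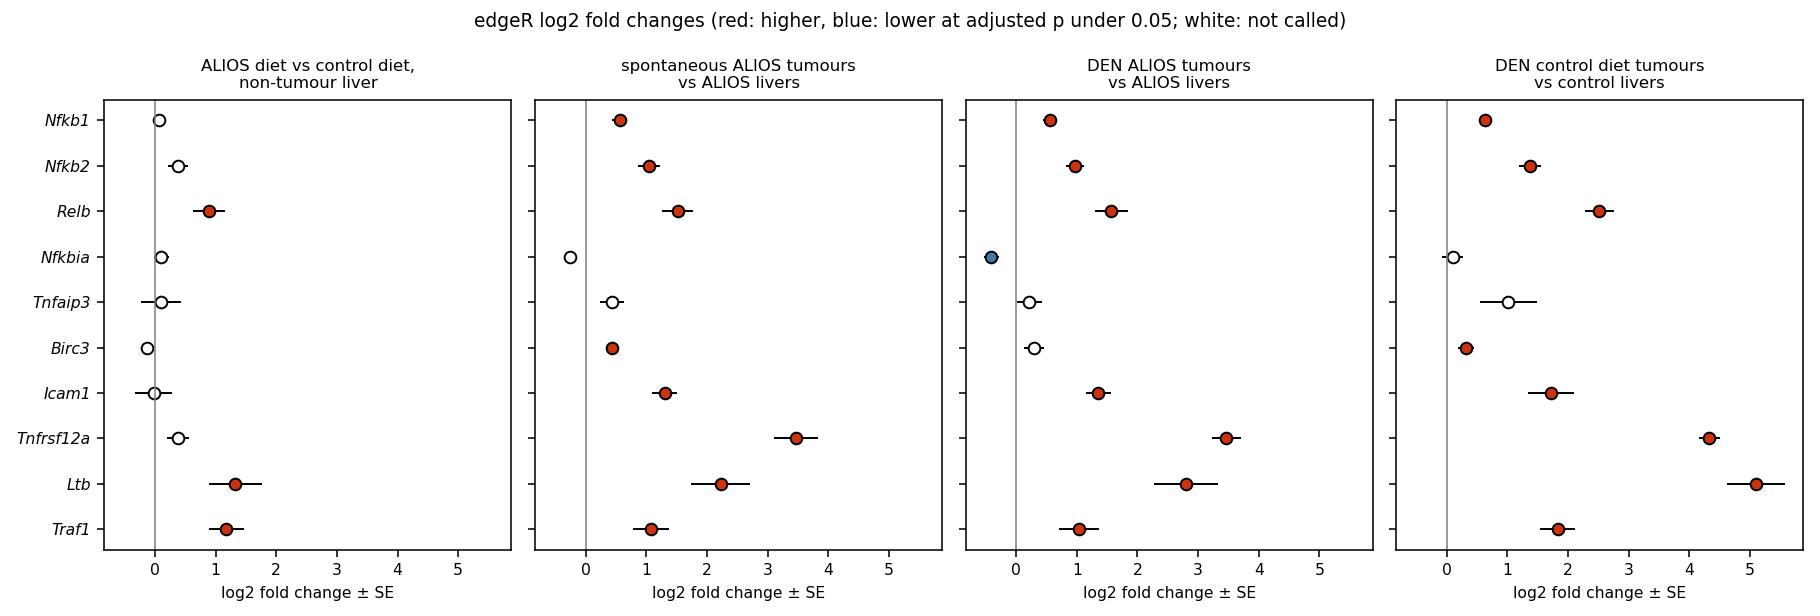
Log2 fold changes (horizontal axis, points with bars of 1 SE) of the 10 genes in 4 comparisons, with called genes filled and genes without a call in white. Tnfrsf12a and Ltb have the highest values in each of the 3 tumour comparisons, and Nfkbia lies at -0.25, -0.41 and 0.10.

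The 3 subunit genes among the 10 rose in tumours, with the largest fold for Relb. Relb, which encodes the RelB subunit of the non-canonical arm, ranged from 0.526 to 1.85 CPM in control livers (median 0.814) and from 0.741 to 3.32 CPM in ALIOS livers (median 1.83). The diets overlapped, and 5 of the 11 ALIOS livers lay above every control liver. The difference was 0.88 ± 0.27 (1.85-fold, adjusted p = 0.0337). It was called in 13 of 23 fits that each left out 1 liver and lost without N1, N2, N3, N4, N7, N11, N17, N19, N22 or N23, with values between 0.75 and 1.01 and an adjusted p of up to 0.0784. In spontaneous ALIOS tumours Relb ranged from 2.59 to 8.21 CPM (median 4.88), and 10 of 12 tumours exceeded every ALIOS liver. The tumours were 1.52 ± 0.25 higher (2.86-fold, adjusted p = 2.73e-05). DEN ALIOS tumours held 2.94 to 8.44 CPM (median 5.17). In these the difference from ALIOS livers was 1.57 ± 0.27 (adjusted p = 0.000119). In the DEN control diet tumours T17 to T21 Relb was at 5.10, 5.61, 5.40, 5.77 and 5.24 CPM. These 5 tumours lay close together and well above the highest control liver, with a difference of 2.52 ± 0.24 (5.72-fold, adjusted p = 5.98e-08).

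Nfkb2, the precursor of p52, was called higher in the same tumour comparisons as Relb, and not between diets. It ranged from 4.57 to 12.4 CPM in control livers (median 5.58) and from 5.49 to 11.4 CPM in ALIOS livers (median 8.86). Of the ALIOS livers 10 of 11 exceeded the control median. The highest control liver, N6 at 12.4 CPM, exceeded every ALIOS liver, and the next, N5 at 9.04 CPM, lay within the ALIOS range. The diet difference of 0.38 ± 0.17 was not called (adjusted p = 0.132), and without N6 it was called at 0.51 (adjusted p = 0.0252). In tumours Nfkb2 ranged from 8.85 to 26.1 CPM (spontaneous ALIOS, median 15.3) and from 11.4 to 19.7 CPM (DEN ALIOS, median 17.3). Of the spontaneous tumours 10 of 12 exceeded every ALIOS liver. The differences from ALIOS livers were 1.04 ± 0.18 (adjusted p = 5.41e-05) and 0.97 ± 0.15 (adjusted p = 4.96e-05). T17 to T21 held Nfkb2 at 15.2, 17, 16.4, 15.4 and 17.6 CPM. All of these exceeded the control livers, by 1.37 ± 0.19 (adjusted p = 5.64e-06). Of the 4584 exonic bases of Nfkb2, 830 overlap AC114539.1 and Psd on the opposite strand, and no source used here gives the strand setting of HTSeq, so reads from these genes could not be told apart.

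Nfkb1, the precursor of p50, had the smallest tumour folds of these 3 subunit genes. It ranged from 19.6 to 24.4 CPM in control livers (median 21.6) and from 19.7 to 26.6 CPM in ALIOS livers (median 23.1). The diets overlapped almost wholly, with a difference of 0.07 ± 0.05 (adjusted p = 0.36). Spontaneous ALIOS tumours ranged from 20.0 to 47.0 CPM (median 33.1), and T2, the lowest, lay within the liver range while 9 of 12 lay above it. DEN ALIOS tumours ranged from 21 to 44.0 CPM (median 35.5). Each of these groups was higher than ALIOS livers by 0.56, with SEs of 0.13 and 0.12 (adjusted p = 0.000686 and 0.000548). The DEN control diet tumours T17 to T21 were at 36.6, 36.2, 26.7, 31.2 and 35.2 CPM. None overlapped the control livers, and the difference was 0.63 ± 0.08 (adjusted p = 2.28e-06).

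The feedback inhibitors Nfkbia and Tnfaip3 were not called higher in any of these comparisons. Nfkbia encodes IkB-alpha, which binds NF-kB dimers and returns them to the cytoplasm. It ranged from 17 to 43.3 CPM in control livers (median 22.2), with N5 highest, and from 21.9 to 33.6 CPM in ALIOS livers (median 25.7). The ALIOS range lay inside the control range, and the difference of 0.10 ± 0.13 was not called (adjusted p = 0.627). In spontaneous ALIOS tumours Nfkbia ranged from 14.7 to 30.4 CPM (median 21.4), and 6 of 12 lay below every ALIOS liver. The difference of -0.25 ± 0.11 was not called (adjusted p = 0.0511). It was called lower without N20, T2, T3, T10 or T13, with an adjusted p between 0.0191 and 0.0487. DEN ALIOS tumours ranged from 14.8 to 30.9 CPM (median 18), with T24 highest. There Nfkbia fell by 0.41 ± 0.12 on the log2 scale (adjusted p = 0.0096). T17 to T21 held Nfkbia at 23.3, 26.6, 28.1, 26.9 and 26.8 CPM. These lay within the range of the control livers, with a difference of 0.10 ± 0.17 (adjusted p = 0.665).

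Tnfaip3 encodes A20, a ubiquitin editor that shuts off signalling from TNF and Toll-like receptors. It ranged from 1.78 to 14.5 CPM in control livers (median 3.13) and from 2.80 to 9.43 CPM in ALIOS livers (median 5.14). N5 and N6, at 14.5 and 14.1 CPM, stood apart from the other control livers, of which the next held 5.42 CPM. The difference of 0.10 ± 0.32 was not called (adjusted p = 0.868). In spontaneous ALIOS tumours Tnfaip3 ranged from 4.72 to 13.6 CPM (median 7.65), with only T13 above every ALIOS liver. The difference of 0.44 ± 0.19 was not called (adjusted p = 0.0625). It was called by DESeq2 (adjusted p = 0.042) and without N17, N22, T2, T3, T4 or T12 (adjusted p between 0.0206 and 0.0483). DEN ALIOS tumours ranged from 3.71 to 8.02 CPM (median 6.35) and differed from ALIOS livers by 0.22 ± 0.21 (adjusted p = 0.407). In T17 to T21 Tnfaip3 was at 9.04, 9.73, 3.78, 5.25 and 23.2 CPM. T21 alone exceeded every control liver, and the difference of 1.01 ± 0.47 was not called (adjusted p = 0.0788). It was 0.43 without T21 and was called at 1.22 without T19 (adjusted p = 0.0434) and at 0.97 with all 6 groups in 1 fit (adjusted p = 0.0205).

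Birc3 and Traf1 encode proteins that act together at TNF receptors. Birc3 encodes cIAP2, a ubiquitin ligase that favours cell survival. It ranged from 12.9 to 24 CPM in control livers (median 19.3) and from 13.6 to 23.1 CPM in ALIOS livers (median 16.5). The ranges were nearly the same, and the difference of -0.13 ± 0.10 was not called (adjusted p = 0.372). Spontaneous ALIOS tumours ranged from 17.9 to 29.9 CPM (median 22.9). All 12 exceeded the ALIOS liver median and 6 exceeded every ALIOS liver, with a difference of 0.43 ± 0.09 (adjusted p = 0.000352). DEN ALIOS tumours spread from 10.9 to 30.2 CPM (median 20.4), beyond the livers on both sides. The difference of 0.29 ± 0.16 was not called (adjusted p = 0.154), and it was called at 0.38 without T24, the lowest tumour (adjusted p = 0.0304). In T17 to T21 Birc3 was at 24.5, 27.6, 18.3, 22 and 21.9 CPM. The groups overlapped, and the difference of 0.32 ± 0.13 (adjusted p = 0.0438) lost its call without T17, T18, T20 or T21, with adjusted p-values between 0.0821 and 0.159, and under DESeq2, its size factors in edgeR, no low count filter and all 6 groups in 1 fit (adjusted p between 0.052 and 0.13).

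Traf1, an adaptor that binds cIAP proteins at TNF family receptors, was sparse, with 3 to 16 counts in control livers and 9 to 42 in ALIOS livers. It ranged from 0.0942 to 0.667 CPM in control livers (median 0.242) and from 0.308 to 1.39 CPM in ALIOS livers (median 0.585). All 11 ALIOS livers exceeded the control median and 4 exceeded every control liver. The difference was 1.17 ± 0.29 (2.26-fold, adjusted p = 0.0129) and was called in each of the 23 fits without 1 liver. Spontaneous ALIOS tumours ranged from 0.554 to 3.14 CPM (median 1.39) and DEN ALIOS tumours from 0.556 to 2.80 CPM (median 1.07). Of the spontaneous tumours 6 of 12 lay above every ALIOS liver. The differences were 1.08 ± 0.29 (adjusted p = 0.00356) and 1.04 ± 0.33 (adjusted p = 0.0144). In T17 to T21 Traf1 was at 1.29, 0.900, 1.12, 1.14 and 0.928 CPM. All 5 lay above the control livers, by 1.83 ± 0.29 (adjusted p = 3.28e-05).

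Ltb encodes lymphotoxin-beta, a TNF family ligand made by lymphocytes that signals through the non-canonical arm. It had only 2 to 43 counts in control livers, with 0.0760 to 1.79 CPM (median 0.294), and reached 0.247 to 4.35 CPM in ALIOS livers (median 1.09). N17 was highest, more than the next ALIOS liver at 1.94 CPM, and 2 ALIOS livers exceeded every control liver. The diet difference was 1.33 ± 0.43 (2.51-fold, adjusted p = 0.0487). It held in 6 of the 23 fits without 1 liver, those without N6, N8, N9, N10, N13 or N16, and ranged from 0.96 to 1.65 over all 23, with an adjusted p of up to 0.136. Without the low count filter its adjusted p was 0.0631, and with all 6 groups in 1 fit it was 0.146. Spontaneous ALIOS tumours ranged from 1.38 to 16.4 CPM (median 4.11) and DEN ALIOS tumours from 2.56 to 33.3 CPM (median 4.56). The highest of the latter, T26, stood apart from the next at 12.6 CPM. Tumours were higher than ALIOS livers by 2.23 ± 0.49 (4.69-fold, adjusted p = 0.000577) and 2.80 ± 0.52 (6.97-fold, adjusted p = 0.00023). Without T26 the DEN ALIOS value was 2.12 and still called (adjusted p of at most 0.000777 over the 19 fits without 1 library). For Ltb T17 to T21 were at 29.6, 25.3, 23, 8.37 and 4.87 CPM. Each lay above the highest control liver, and the difference of 5.10 ± 0.47 (34.3-fold, adjusted p = 4.34e-08) was the largest of any of the 10 genes in these comparisons. In bulk tissue, more cells that make a transcript and more transcript per cell cannot be told apart.

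Tnfrsf12a encodes Fn14, the receptor for the ligand TWEAK, and is known to be induced in injured and regenerating hepatocytes. It ranged from 2.65 to 8.20 CPM in control livers (median 5.04) and from 3.74 to 10.4 CPM in ALIOS livers (median 6.75). The diets overlapped, and the difference of 0.37 ± 0.18 was not called (adjusted p = 0.179). The spontaneous tumours ranged from 8.45 to 145 CPM (median 72.0). T2 at 8.45 CPM was the only one inside the liver range, and T6 and T5 followed at 15.2 and 29.3 CPM. The tumours were 3.47 ± 0.36 higher (11.1-fold, adjusted p = 1.77e-07). DEN ALIOS tumours ranged from 22.8 to 97.2 CPM (median 74.2), with none in the liver range. Their difference of 3.47 ± 0.24 from ALIOS livers (adjusted p = 8.3e-09) ranked 14 of 14434 genes by p-value. In T17 to T21 Tnfrsf12a was at 96.5, 76.6, 106, 101 and 111 CPM. These were far above the control livers, by 4.33 ± 0.18 (20.1-fold, adjusted p = 6.06e-13).

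Icam1 encodes an adhesion molecule through which leukocytes bind to endothelium and hepatocytes, and is a classical NF-kB target. It ranged from 4.17 to 33 CPM in control livers (median 8.16) and from 5.71 to 16.3 CPM in ALIOS livers (median 9.89). N6 at 33 and N5 at 24.8 CPM exceeded every ALIOS liver, and the other control livers reached no more than 11.5 CPM. The difference of -0.02 ± 0.31 was not called (adjusted p = 0.972). Spontaneous ALIOS tumours ranged from 16 to 47.3 CPM (median 27.4), and 10 of 12 exceeded every ALIOS liver. DEN ALIOS tumours ranged from 18.7 to 40.2 CPM (median 26), all above the ALIOS livers. The differences were 1.30 ± 0.21 (adjusted p = 2.01e-05) and 1.35 ± 0.20 (adjusted p = 2.76e-05). The levels of Icam1 in T17 to T21 were 37.7, 42.5, 36.7, 30.3 and 31.8 CPM. Of these 3 exceeded every control liver and the others exceeded all but N6, with a difference of 1.72 ± 0.38 (adjusted p = 0.000776). Of its 4360 exonic bases, 511 overlap Gm47079 on the opposite strand.

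Between the tumour groups none of the 10 genes was called. DEN and spontaneous ALIOS tumours differed by between -0.27 ± 0.18 (Tnfaip3) and 0.52 ± 0.57 (Ltb). The values were -0.21 ± 0.15 for Nfkbia, -0.20 ± 0.16 for Birc3, -0.12 ± 0.19 for Nfkb2 and -0.09 ± 0.34 for Traf1. They were -0.05 for Nfkb1 and for Tnfrsf12a, with SEs of 0.17 and 0.39, and lay within 0.01 of 0 for Relb and Icam1, with SEs of 0.23 and 0.20. In this comparison edgeR called 0% of 14845 genes in either direction, with 1079 genes at an unadjusted p under 0.05 and 67 called by DESeq2, none of them among the 10. Within DEN tumours, ALIOS against control diet, the values ran from -0.95 ± 0.64 for Ltb to 0.40 ± 0.38 for Traf1. Background calls were 0% higher and 0.0134% lower of 14944 genes, with 1273 at an unadjusted p under 0.05 and 155 called by DESeq2. Of the 10 genes only Nfkbia had an unadjusted p under 0.05 (-0.39 ± 0.17, p = 0.0384 in edgeR), and its adjusted p was 0.555. Tnfaip3, Tnfrsf12a and Icam1 differed by -0.68 ± 0.35, -0.47 ± 0.26 and -0.37 ± 0.18, and Birc3 by -0.15 ± 0.23. Relb, Nfkb1 and Nfkb2 differed by -0.04, 0.01 and -0.01, with SEs of 0.23, 0.18 and 0.15.

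Whether diet acted differently in DEN tumours and in livers was tested by the interaction, the diet difference in DEN tumours minus that in livers. All 10 values were below 0 and none was called, where 1.04% of 15606 genes were called above 0 and 1.23% below. The median was -0.64 over the 10 genes and 0.04 over all genes. The share of all genes with a value below 0 was not determined. Many of the 10 also varied together, so their shared sign is not 10 separate results. The furthest from 0 were Ltb at -2.29 ± 0.75 (adjusted p = 0.096), Relb at -0.93 ± 0.39 (adjusted p = 0.21) and Tnfrsf12a at -0.85 ± 0.32 (adjusted p = 0.152). Tnfaip3 and Traf1 lay at -0.79 ± 0.52 and -0.78 ± 0.47, Nfkbia at -0.50 ± 0.21, Nfkb2 at -0.39 ± 0.25, Icam1 at -0.36 ± 0.45 and Nfkb1 at -0.06 ± 0.15. The nearest, Birc3 at -0.02 ± 0.22, turned to 0.06 without T18 or without T24. Relb, Ltb and Traf1 were called for diet in liver and not in DEN tumours, but a difference between the tissues in the effect of diet was not shown for any of the 10.

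**Figure D3:**
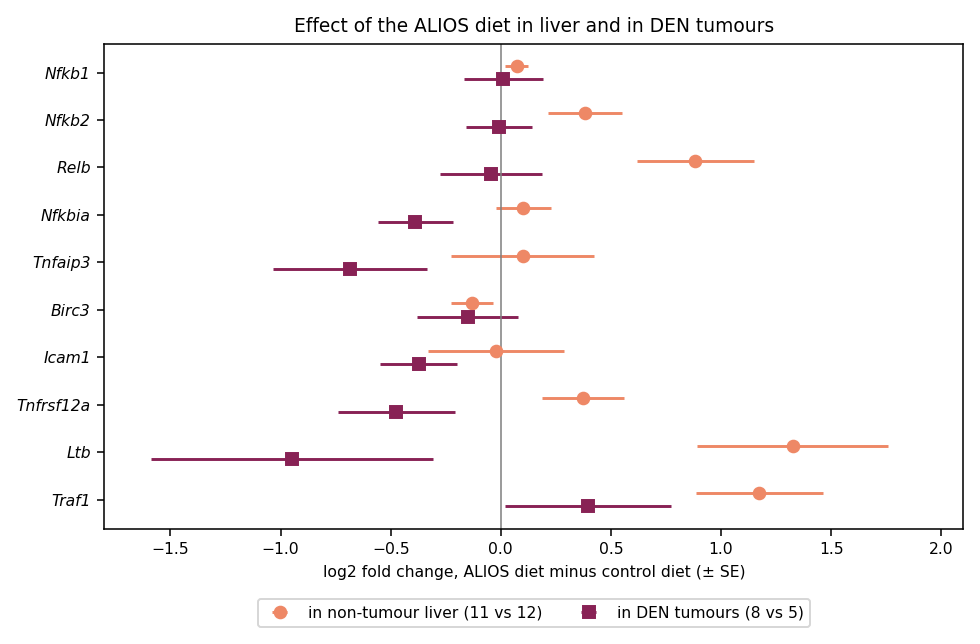
Log2 fold change between ALIOS and control diet (horizontal axis, ± SE) of each gene in non-tumour liver and in DEN tumours. In livers Relb, Ltb and Traf1 lie at 0.88, 1.33 and 1.17, and in DEN tumours Ltb lies at -0.95 with an SE of 0.64.

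The other genes of the pathway were divided into subunits, IkB proteins and ubiquitin editors, adaptors and kinases, TNF family ligands, TNF family receptors and other target genes. Counts cover the genes that passed the low count filter. For diet in liver 5 of 16 receptors were higher and none lower, with a median log2 fold change of 0.41 over the 16, where 6.73% of all genes were called higher and 4.51% lower. The largest changes were in Eda2r, the receptor for ectodysplasin A2, with medians of 0.466 CPM on the control and 1.0 CPM on the ALIOS diet (1.27 ± 0.33, adjusted p = 0.0172), and Tnfrsf23, a decoy receptor for TRAIL, with medians of 0.701 and 1.72 CPM (1.24 ± 0.24, adjusted p = 0.00324). Neither Rel nor Rela, none of 12 IkB proteins and ubiquitin editors and none of 4 ligands was called. Of 26 adaptors and kinases Irak4, a kinase of Toll-like receptor signalling, was higher (0.22 ± 0.07, adjusted p = 0.0364) and Ikbkg, the regulatory subunit of the IkB kinase, was lower (-0.32 ± 0.09, adjusted p = 0.0247). Irak4 lost its call in 11 of 23 fits without 1 liver (without N1, N2, N4, N7, N11, N12, N14, N16, N17, N19 or N23). Ikbkg shares exonic bases with G6pdx, and Irak4 with Twf1, on the opposite strand. Of 21 other targets 3 were higher and 2 lower.

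Among these targets Ccl5, a chemokine for T cells, had medians of 0.418 CPM on the control and 2.05 CPM on the ALIOS diet, and was 2.12 ± 0.51 higher (adjusted p = 0.0125). Saa3, an acute phase protein, was called lower on the ALIOS diet (-3.72 ± 1.01, adjusted p = 0.0208), although its median was 3.85 CPM in control and 7.61 CPM in ALIOS livers. Of the 12 control livers 5 exceeded every ALIOS liver, with the highest, N5, at 729 CPM, and 6 lay below the lowest ALIOS liver at 2.73 CPM. Without N5 the value was -2.68 (adjusted p = 0.0526) and no longer called. N5 and N6 were the libraries that held the highest control levels of Icam1, Tnfaip3, Nfkbia, Nfkb2 and Relb.

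In tumours 21 of the 26 listed receptors passed the filter, more than the 16 that passed in livers alone, so some entered the count through their tumour levels. In spontaneous ALIOS tumours 11 of these 21 were higher and 4 lower than in ALIOS livers, beside 26.9% and 25.9% of all genes. In DEN ALIOS tumours 12 of 21 were higher and 3 lower, beside 27.7% and 19.8% of all genes. Tnfrsf18, known as GITR, rose from a median of 0.190 CPM in ALIOS livers to 5.40 CPM in spontaneous and 4.43 CPM in DEN ALIOS tumours (4.79 ± 0.75 and 4.48 ± 0.54). Tnfrsf10b, a receptor for TRAIL, rose from 0.548 to 8.08 and 9.16 CPM (3.71 ± 0.47 and 4.06 ± 0.43). Few ligands could be tested, with 1 higher and 2 lower of 5 in spontaneous tumours and 2 higher, of which Tnf was 1, and 3 lower of 6 in DEN ALIOS tumours. Tnfsf13, which encodes APRIL, rose from a median of 1.01 to 21.9 and 18 CPM (4.07 ± 0.43 and 3.95 ± 0.38), and Tnfsf15 fell by 2.24 ± 0.54 and by 4.07 ± 0.51 on the log2 scale, with medians of 0.806, 0.0611 and 0.0294 CPM. Tnfsf13 shares exons with Tnfsfm13 and Tnfsf13os, and Tnfrsf18 with Gm16008, so their levels are uncertain.

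The counts of the remaining lists stand beside the same shares of all genes. Of 13 IkB proteins and ubiquitin editors 4 were higher and 4 lower in spontaneous tumours, and 4 higher and 2 lower in DEN ALIOS tumours, with median log2 fold changes of 0.05 and 0.21 beside 0.01 and 0.08 over all genes. Nfkbid, a nuclear IkB protein, rose by 1.22 ± 0.35 and 1.15 ± 0.35, the deubiquitinase Otud7b rose by 0.66 ± 0.10 in spontaneous tumours, and the ubiquitin ligase Itch fell by 0.70 ± 0.12 on the log2 scale in DEN ALIOS tumours. Of 26 adaptors and kinases 9 were higher and 3 lower, and 10 higher and none lower, respectively. Traf3, an inhibitor of the non-canonical arm, rose by 0.83 ± 0.14 and 1.01 ± 0.17, Traf5 by 0.91 ± 0.13 in spontaneous tumours and Tab2 by 0.70 ± 0.14 in DEN ALIOS tumours. Rel rose by 0.40 ± 0.14 in spontaneous and Rela by 0.33 ± 0.10 in DEN ALIOS tumours. Of the other targets 6 of 21 were higher and 3 lower in spontaneous, and 6 of 23 higher and 2 lower in DEN ALIOS tumours. They included Ier3, an early response gene, at 2.09 ± 0.27 and 2.44 ± 0.33, Lcn2, which encodes lipocalin-2, at 1.89 ± 0.43 in spontaneous tumours, and Nos2 at 2.31 ± 0.60 in DEN ALIOS tumours. Leaving out 1 library took none of these calls away, although the low count filter removed Tnfsf15 without T2 or T6 and Nos2 without N17.

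In DEN control diet tumours 11 of 19 receptors were higher and 3 lower, 1 of 4 ligands higher and 2 lower, and 8 of 22 other targets higher and 4 lower than in control livers, beside 27.3% and 24.4% of all genes. Of 13 IkB proteins and ubiquitin editors 4 were higher and 3 lower, of 26 adaptors and kinases 8 higher and 3 lower, and neither Rel nor Rela was called. Tnf itself was near the limit of detection. It had 1 to 27 counts in control livers, 1 to 20 in ALIOS livers, 3 to 27 in spontaneous ALIOS tumours, 12 to 31 in DEN ALIOS tumours, 6 to 31 in DEN control diet tumours and 11 in T7. It passed the filter only in comparisons that include the DEN ALIOS tumours, where its lowest count was 12, so the call of Tnf there rests on the group in which it was high.

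Some macrophage, T cell, B cell, cholangiocyte, stellate and fibroblast markers moved with the diet beside the 3 called genes. In ALIOS livers 5 of 10 macrophage, 5 of 6 T cell, 2 of 4 B cell, 3 of 6 cholangiocyte, 3 of 9 stellate and fibroblast and 1 of 8 endothelial markers that passed the filter were higher, and none was lower. Over all genes 6.73% were called higher and 4.51% lower. Only 6 of 12 listed T cell and 4 of 10 listed B cell markers passed, so some may have entered the count through the group where they were high. None of 5 neutrophil and none of 10 hepatocyte markers was called. The summed level of 12 T cell markers ranged from 2.70 to 11.5 CPM in control and from 4.69 to 26.3 CPM in ALIOS livers, with N17 highest, which was also the highest ALIOS liver for Relb, Ltb, Traf1 and Tnfaip3. N17 was highest for cholangiocyte markers as well (233 CPM, ALIOS liver median 47.3) and for stellate and fibroblast markers (595 CPM, median 245). The summed level of 10 macrophage markers ranged from 249 to 719 CPM and from 411 to 939 CPM. The part of these cells in the differences was not tested.

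In tumours the same lists did not share 1 direction, and only the cholangiocyte list had higher and no lower calls throughout. Over all genes 26.9%, 27.7% and 27.3% were called higher in spontaneous, DEN ALIOS and DEN control diet tumours. The shares called lower were 25.9%, 19.8% and 24.4%. As in livers, some markers may have passed the filter through the group where they were high. Macrophage markers were 2 higher and 6 lower of 10 in spontaneous, 2 higher and 2 lower in DEN ALIOS and 2 higher and 3 lower in DEN control diet tumours. T cell markers were 1 higher and 1 lower of 10, none called of 11, and 5 higher and 1 lower of 8 in the same order, with summed levels of 3.53 to 22, 4.16 to 31.6 and 4.07 to 14.5 CPM. Cholangiocyte markers were 3, 3 and 4 higher of 7, and none lower. Stellate and fibroblast markers of 9 were 1 higher and 2 lower, 3 higher and 3 lower, and 5 higher and 2 lower, and endothelial markers of 8 were 3 higher and 1 lower, 3 higher and 1 lower, and 4 higher and 2 lower. Of 10 hepatocyte markers 3 were higher in each comparison and 4, 3 and 3 lower, while B cell markers had at most 1 call in either direction and neutrophil markers had none. T24 stood apart in its stellate and fibroblast markers, at 1255 CPM. Its hepatocyte markers, at 91375 CPM, were low beside the DEN ALIOS median of 189844 CPM, but those of T23 and T25 were low too, at 89922 and 105117 CPM.

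How the 10 genes varied with these lists inside the groups was examined by correlation, with group means removed, of log2 CPM with the mean z score of each of 8 marker lists. There were 80 pairs over 23 livers and 80 over 25 tumours, tested by permutation within groups and adjusted over the 80. In livers 17 pairs were called, 16 of them positive. Ltb followed the T cell list most closely (r = 0.87, rho = 0.78, permutation p = 1e-05, the smallest these permutations can give, and 5e-05, adjusted p = 0.0004 and 0.0012), with r of 0.85 and 0.93 within the control and ALIOS diets and 0.79 without N10 and N17. Icam1 followed the neutrophil list (r = 0.85, rho = 0.82, permutation p = 1e-05 and 2e-05, adjusted p = 0.0004 and 0.0012), with r of 0.89 and 0.81 within the diets and 0.81 without N6 and N19. Relb followed the neutrophil list as well (r = 0.78, rho = 0.78, permutation p = 5e-05 and 6e-05, adjusted p = 0.00133 and 0.0012, r = 0.75 without N6 and N19). Summed neutrophil markers were at 15.9 CPM in N5 and 20.9 CPM in N6, against a median of 4.15 CPM in control livers. Traf1 followed the T cell list (r = 0.72, rho = 0.70, permutation p = 0.00011 and 0.00048, adjusted p = 0.0022 and 0.00549, r = 0.55 without N10 and N17). Other called pairs joined Ltb with cholangiocyte, B cell and macrophage markers (r = 0.71, 0.70 and 0.62), Relb, Traf1 and Icam1 with macrophage markers (0.68, 0.67 and 0.67), Tnfaip3, Nfkb2 and Nfkbia with neutrophil markers (0.72, 0.69 and 0.55), Traf1 with B cell and cholangiocyte markers (0.59 and 0.53) and Nfkbia with hepatocyte markers (0.48). The negative pair was Traf1 with hepatocyte markers (r = -0.56).

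In tumours 4 of the 80 pairs were called, all of them positive. Traf1 and the T cell list gave r = 0.78 and rho = 0.73 (permutation p = 3e-05 and 0.00013, adjusted p = 0.0024 and 0.0104), with r of 0.71 in spontaneous and 0.95 in DEN ALIOS tumours and 0.74 without T13 and T24. Ltb and Icam1 each gave r = 0.62 with the T cell list (rho = 0.65 and 0.63, permutation p of r = 0.00184 and 0.00136, adjusted p = 0.0368 and 0.0363). For Ltb r was 0.77 in spontaneous and 0.30 in DEN ALIOS tumours. Nfkbia and the neutrophil list gave r = 0.67 and rho = 0.58 (permutation p = 0.00094 and 0.0039, adjusted p = 0.0363 and 0.0624), so that the rank correlation was not called. Neither Tnfrsf12a nor the subunit genes were in a called pair in tumours.

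**Figure D4:**
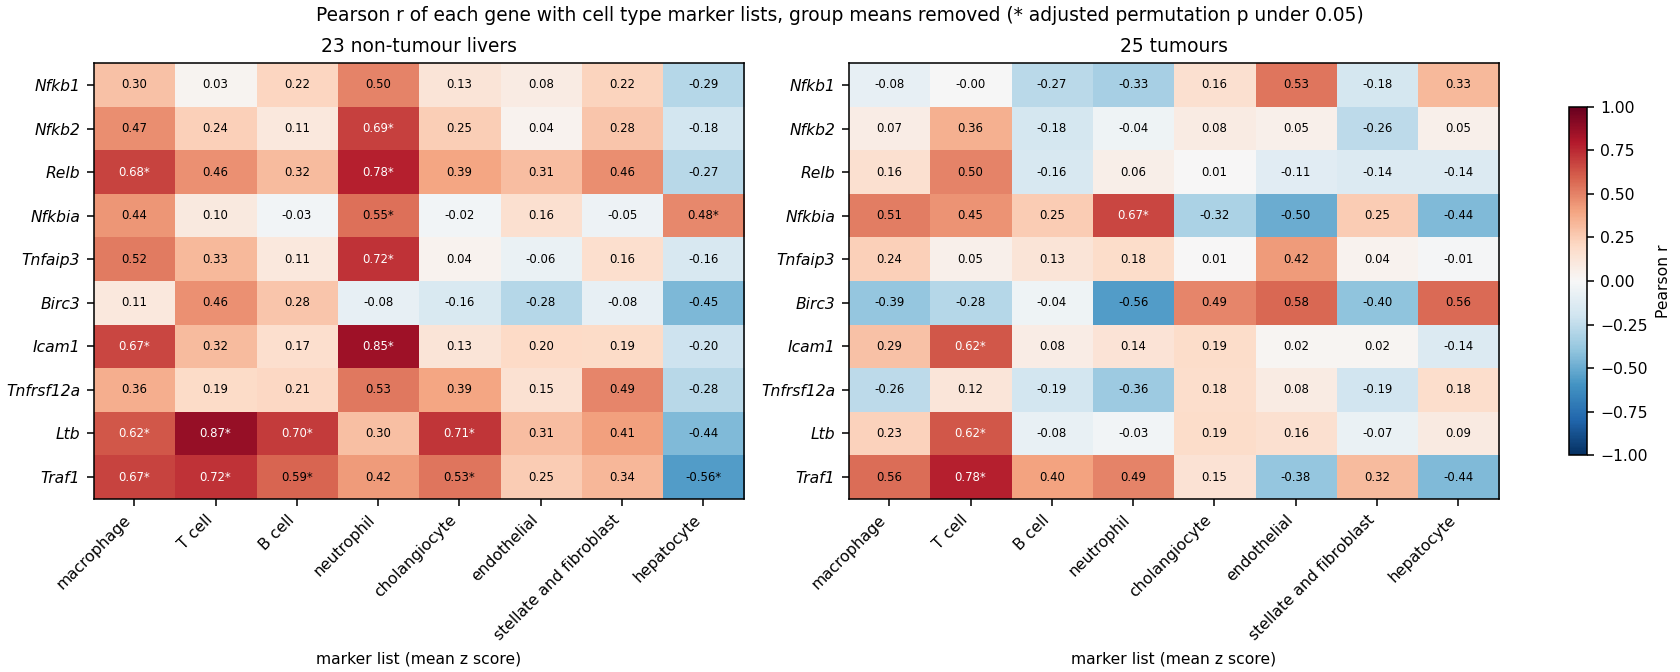
Pearson r (colour, from -1 to 1) between each gene (rows) and each of 8 cell type marker lists (columns), group means removed, in 23 livers and in 25 tumours, with an asterisk at an adjusted permutation p under 0.05. Ltb with T cells (0.87) and Icam1 with neutrophils (0.85) are the strongest of 17 marked pairs in livers, and 4 pairs are marked in tumours.

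The genes also varied together. Of the 45 pairs of genes 20 were called in livers and 18 in tumours, all of them positive, with a median r over the 45 of 0.45 and 0.34. Nfkb2 and Relb, the partners of the non-canonical arm, were the closest pair in each tissue. In livers they gave r = 0.89 and rho = 0.83 (permutation p = 1e-05 for each, adjusted p = 0.000225), with r of 0.89 and 0.92 within the control and ALIOS diet and 0.88 without N5 and N6. In tumours they gave r = 0.92 and rho = 0.92 (permutation p = 1e-05 for each, adjusted p = 0.000225), with r of 0.98 in spontaneous and 0.87 in DEN ALIOS tumours and 0.89 without T5 and T13. Icam1 followed Relb in livers (r = 0.84, rho = 0.81, permutation p = 1e-05 for each, adjusted p = 0.000225, r = 0.83 without N6 and N17) and Ltb in tumours (r = 0.81, rho = 0.84, permutation p = 1e-05 for each, adjusted p = 0.000225, r = 0.78 without T2 and T11). Ltb and Traf1 gave r = 0.73 and rho = 0.77 in livers (permutation p = 0.00012 and 3e-05, adjusted p = 0.000771 and 0.00045, r = 0.58 without N10 and N17). Nfkbia and Nfkb2 gave r = 0.54 and rho = 0.53 in livers (permutation p = 0.0116 and 0.0111, adjusted p = 0.029 and 0.0293). Their r was only 0.36 without N5 and N6, 0.70 within control livers and 0.14 within ALIOS livers. The part of N5 and N6 in this relation was not tested further. Tnfaip3 and Nfkb2 gave r = 0.76 and rho = 0.64 in livers (permutation p = 0.00011 and 0.00111, adjusted p = 0.000771 and 0.00624, r = 0.60 without N5 and N6), and Tnfaip3 and Relb gave r = 0.76 and rho = 0.73 (permutation p = 3e-05 and 0.0001, adjusted p = 0.000337 and 0.00112, r = 0.68 without N6 and N17). Birc3 was in no pair called by Pearson r in livers, and its rank correlation with Traf1 was called (rho = 0.49, permutation p = 0.0199, adjusted p = 0.0426, r = 0.38).

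**Figure D5:**
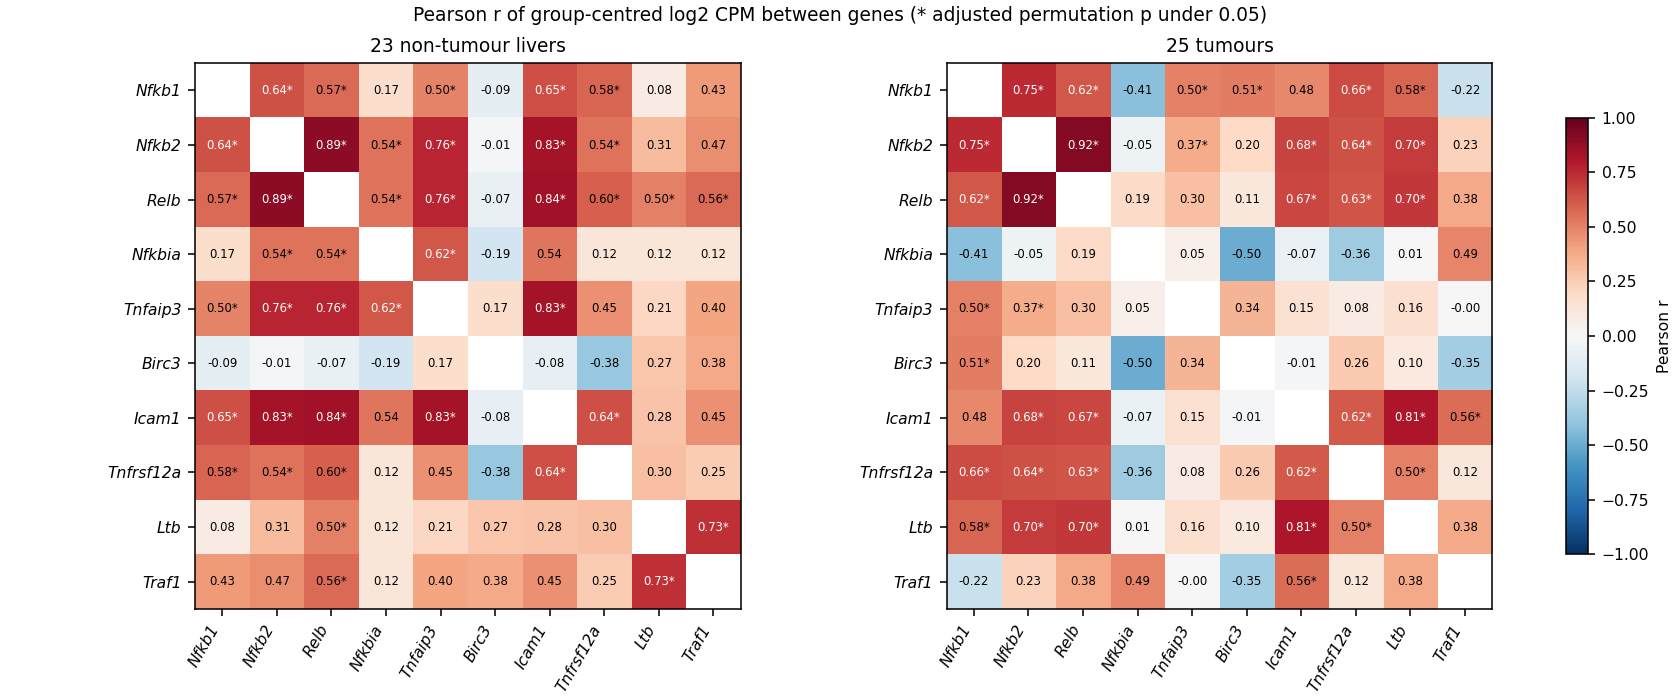
Pearson r (colour, from -1 to 1) between the 10 genes, group means removed, in 23 livers and in 25 tumours, with an asterisk at an adjusted permutation p under 0.05. Nfkb2 and Relb reach 0.89 in livers and 0.92 in tumours, and 20 and 18 of 45 pairs are marked.

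Over 12676 genes in the 23 livers, the gene whose log2 CPM was most like each of the 10 was found by Pearson r after removal of the diet means, as a description. For Relb it was Cd14 (r = 0.91), the macrophage co-receptor for lipopolysaccharide, for Ltb Thbs1 (r = 0.90) and for Traf1 Myof (r = 0.87). Icam1 and Nfkb2 were closest to Tlr2 (r = 0.89 and 0.81), a Toll-like receptor for bacterial lipoproteins, and Tnfaip3 to Lcn2 (r = 0.89). Nfkbia was closest to Sirt2 (r = 0.90), Tnfrsf12a to Tnfaip1 (r = 0.84), Birc3 to Accs (r = 0.82) and Nfkb1 to Adam17 (r = 0.78), the protease that releases TNF from the cell surface. The next closest were Plek and Ms4a6d for Relb (r = 0.90 and 0.87), Slamf7 for Ltb (0.89), Nlrp3 and Glipr1 for Traf1 (0.85 for each), Tmem173 and Tgm2 for Icam1 (0.88 for each) and Tgm2 and Hdc for Nfkb2 (0.80 and 0.79). They were Tmem176b and Tlr2 for Tnfaip3 (0.88 and 0.87), Trf and Tmem176a for Nfkbia (0.89 and 0.83), Tpm4 and Nicn1 for Tnfrsf12a (0.83 for each), Rpgrip1 and Hus1 for Birc3 (0.79 and 0.78) and Traf3 and Fbxw11 for Nfkb1 (0.77 for each).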

How the data were processed

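Libraries were grouped by the labels, and T1 was left out. The authors deposited raw counts of reads per gene. They made stranded mRNA libraries with Illumina's kit, used STAR in its 2-pass mode to map reads to mm10, and HTSeq to count them on exons of Gencode M6 genes. Versions and the strand option were not given in the sources used here.

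Low count genes were removed by filterByExpr within each comparison, and counts were scaled with TMM and tested with glmQLFit and glmQLFTest of edgeR 4.0.16 (limma 3.58.1, R 4.3.3), without covariates. The SE is the log2 fold change divided by the root of the test's F. Alternatives were DESeq2 1.42.0, its size factors in edgeR, no filter on low counts, all 6 groups in 1 fit, leaving out single libraries, adding T1 and a replicate block. Log2 CPM had a prior count of 2. Correlations used 100000 permutations within groups (Python 3.11.15, numpy 2.4.6, scipy 1.17.1, pandas 2.3.3). The tests were tried on simulated data with known changes. Gene coordinates and overlaps are from Gencode M21 on GRCm38, promoters from RefSeq.

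The 10 genes, the pathway lists and the marker lists were chosen with earlier results of these data known. By rule, the text names all 10 genes in every comparison, the 2 called genes of each pathway list with the largest change for diet in liver and for both ALIOS tumour comparisons, Tnf as counts, and the 3 genes closest to each of the 10 in livers, of which 1 is not reported here. Reads are not independent molecules, and counts of a few reads, as for Ltb, Traf1 and Tnf in livers, carry a large counting error.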

Additional observations from a re-analysis of the deposited data

Results flagged for a closer look

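Ltb in the DEN ALIOS tumour T26 was at 33.3 CPM, far from the nearest of the other 7 tumours at 12.6 CPM. This was the only outlier by Dixon's criterion at the 95% level among 20 sets of values, the 10 genes in the 8 DEN ALIOS and the 5 DEN control diet tumours, of which chance gives about 1 in 20. T26 also had the highest macrophage marker sum of its group (1316 CPM) and a T cell marker sum of 23 CPM. The part of these in the Ltb value was not tested.

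The spontaneous tumour of a control diet mouse, T7, stood in no comparison because it was alone in its group. It lay above every control liver for 7 of the 10 genes. The share of all genes for which it did so was not determined, so this count describes T7 and sets these genes apart from no others. Nfkb1 was at 31.4 CPM against a highest control liver of 24.4, Nfkb2 at 12.8 against 12.4, Relb at 3.59 against 1.85 and Birc3 at 24.5 against 24. Tnfrsf12a was at 73.2 CPM against 8.20, Ltb at 4.81 against 1.79 and Traf1 at 1.19 against 0.667. For Nfkb2 and Birc3 the excess over the highest control liver was small. In T7 Nfkbia was at 14.8 CPM, below the lowest control liver at 17, and Tnfaip3 and Icam1, at 4.51 and 23.5 CPM, lay within the control range. With 1 library, these values have no replicate check.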

How the results depend on the processing

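Of the values of the single genes under an alternative, 1093 kept their side of the threshold, 61 lost a call, 16 gained one and none that was called reversed. The 1093 include uncalled values that changed sign and stayed uncalled, as Icam1 did for diet in liver (-0.10 to 0.26 without 1 liver). The number of the 10 genes called for diet in liver (3) fell to 1 in 10 of the 23 fits without 1 liver (range 1 to 4). Genes called for diet in liver (1542) numbered 601 with all 6 groups in 1 fit, 2200 with DESeq2 and 949 to 2343 without 1 liver. For DEN against spontaneous tumours (0) they were 67 with DESeq2 and 268 with all 6 groups. For diet in DEN tumours (2) they were 155 with DESeq2, 1 without the low count filter, 228 with all 6 groups, 14 without T24 and 0 to 1 without 1 control diet tumour. For the interaction (354) they were 657 with DESeq2, 732 without T24 and 174 to 446 without 1 control diet tumour. The cause was not tested. The counts of correlated pairs stayed within 1.5 times of the main count under rank correlation, another prior count, no TMM scaling and without T24.

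The labels number livers and tumours separately and do not tie them to the same animals. Deviations of libraries with the same number correlated at -0.21 and -0.07 (spontaneous) and between -0.11 and 0.06 (DEN ALIOS). With only 2 and 4 shared numbers, these values cannot settle whether any libraries were paired. With a replicate block on the 2 shared numbers, 1 of the 10 genes and 379 genes in all were called in spontaneous tumours (8 and 7487 with all libraries), and 1 and 1090 in the same libraries without the block, a fit added after the data were seen. With 4 shared numbers in DEN ALIOS tumours the block gave 2 and 1664 (8 and 6851 with all libraries), and 4 and 3241 without it. No paired analysis was possible in the other comparisons because their groups share fewer than 2 numbers. Tnf did not pass the low count filter in comparisons without DEN ALIOS tumours and was not tested there. Leaving out each library in turn from DEN ALIOS tumours against ALIOS livers was added after the data were seen, and it took no call from the 10 genes.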
